A study of Mus musculus with 60 samples.

Results

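The transcripts described here come from 10 imprinted mouse genes: Igf2, H19, Meg3, Dlk1, Peg3, Cdkn1c, Rian, Snrpn, Ube3a and Plagl1. They were chosen by name and not by a cutoff on a measured value, but with earlier results of these data known. All 10 were found among the 39756 genes measured in cortical cells and among the 41866 genes measured in the hippocampus. The cortical RNA came from 48 short-read libraries. Of these, 46 were primary cortical neurons of wild-type mouse embryos, labelled E18, that received a pool of paxillin siRNA or scrambled (SC) siRNA at 2 days in vitro (DIV), with or without 20 ng/ml BDNF, a neurotrophin, from the same day. RNA was taken at DIV3, DIV5 or DIV10. In the order DIV3, DIV5 and DIV10, there were 3, 4 and 3 libraries of SC siRNA, 3, 4 and 3 of SC siRNA with BDNF, 5, 6 and 4 of paxillin siRNA, and 4, 5 and 2 of paxillin siRNA with BDNF. The remaining 2 libraries were labelled E15 and carried no siRNA and no DIV label. Their titles also call them primary neurons, and they share the culture protocol of the others, so it is not certain that these cells were uncultured. The study pairs E15 with DIV0 and in one place gives E15 as the age of its cultures, so the embryonic age of the cultures is not certain either. The hippocampal RNA came from 12 long-read libraries, 2 for each genotype at postnatal days P10, P15 and P21. One genotype, named S119A below, was labelled as a paxillin knockout with a paxillin-S119A knock-in, in which alanine replaces a serine of this focal adhesion adaptor. It was made with a tamoxifen-inducible Cre recombinase (CreERT2) under the nestin promoter, which is active in neural progenitors, in mice with 1 floxed allele and 1 S119A allele behind a floxed stop. The other genotype, labelled WT and called control below, was littermates that the study describes as carrying both of these engineered alleles but no Cre. Both genotypes were on a C57BL/6J background and received tamoxifen at P5, P7 and P9. The study calls its cultures independent, whereas neither it nor the labels state whether libraries of the same culture number share a culture or batch, or whether the hippocampi of a group came from separate mice. The p-values therefore measure the spread between these libraries, which may in part be technical. In bulk RNA of this kind, fewer cells of a type and less RNA per cell cannot be told apart.

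Imprinted genes are transcribed mainly from the chromosome inherited from one parent, because DNA methylation set in the egg or the sperm marks a control region of the cluster. In tissues where they are imprinted, Igf2, Dlk1, Peg3, Snrpn and Plagl1 are expressed from the paternal chromosome. There H19, Meg3, Rian and Cdkn1c are expressed from the maternal one. Ube3a is maternal in neurons and biallelic in most other cells. Many members of the class regulate the growth of the fetus and the brain, and in the brain Igf2 is best known as a product of the choroid plexus and the meninges. The tables measured the sum of both alleles, so no value below is specific to a parent.

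The 10 genes lie on 3 chromosomes, and their positions on mouse build GRCm38.p6 are those of the RefSeq annotation. Igf2 (chr7:142650768-142666816) and the noncoding RNA H19 (chr7:142575530-142578146) are neighbours, and Cdkn1c (chr7:143458339-143461059) lies further along the same chromosome. Peg3 (chr7:6703892-6730462), Snrpn (chr7:59982495-60450177) and Ube3a (chr7:59228750-59310837) are also on chromosome 7. Dlk1 (chr12:109452485-109463336), Meg3 (chr12:109540996-109571729) and Rian (chr12:109603945-109661716) form one cluster, and Plagl1 is at chr10:13090832-13131694.

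RefSeq promoter windows, which run from 250 bases before to 50 bases after a transcript start, were present for 8 of the 10 genes in the table used here. They are shown 5′ to 3′ for 5 genes whose levels are described in most detail below. In the windows of Igf2 (chr7:142657447-142657746, minus strand), Dlk1 (chr12:109452573-109452872, plus strand) and Snrpn (chr7:60005150-60005449, minus strand), capitals mark the CG dinucleotides at which DNA methylation can occur.
Igf2: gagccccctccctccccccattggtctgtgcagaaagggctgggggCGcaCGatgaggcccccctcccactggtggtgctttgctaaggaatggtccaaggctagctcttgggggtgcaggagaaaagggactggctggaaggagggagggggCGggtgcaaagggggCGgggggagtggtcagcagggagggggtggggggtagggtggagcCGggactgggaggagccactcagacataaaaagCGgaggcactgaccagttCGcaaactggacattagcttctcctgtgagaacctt
Dlk1: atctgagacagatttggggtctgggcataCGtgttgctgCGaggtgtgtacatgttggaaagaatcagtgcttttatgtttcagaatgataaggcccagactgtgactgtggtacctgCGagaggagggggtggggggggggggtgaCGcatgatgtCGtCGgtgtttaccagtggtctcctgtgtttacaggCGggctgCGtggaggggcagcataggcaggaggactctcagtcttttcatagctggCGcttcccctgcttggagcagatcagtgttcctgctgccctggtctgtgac
Snrpn: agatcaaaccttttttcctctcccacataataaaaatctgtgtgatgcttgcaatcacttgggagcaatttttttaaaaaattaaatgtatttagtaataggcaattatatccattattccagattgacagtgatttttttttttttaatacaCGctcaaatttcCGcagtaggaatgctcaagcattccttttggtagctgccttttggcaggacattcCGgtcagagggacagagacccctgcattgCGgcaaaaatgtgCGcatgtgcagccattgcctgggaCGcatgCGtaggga
These windows held 7, 9 and 7 CG dinucleotides, against a median of 7 and quartiles of 3 and 20 over 32817 promoter windows. The Igf2 window holds the start of NM_001315489.1, the transcript that took 89.3% of the Igf2 reads in hippocampus. The Dlk1 window holds the start of NR_033813.1, which took 8 reads or 17.0% of the Dlk1 reads, whereas the most abundant Dlk1 transcript, NM_010052.5 with 19 reads or 40.4%, starts outside it at position 109453455. The Snrpn window is shared with Snurf, the upstream reading frame of the same transcription unit, and holds neither annotated start of the Snrpn transcripts that were matched, of which NM_001082961.2, with 18.9% of the reads, starts just outside it at position 60005111. The start of the most abundant Snrpn transcript, NM_001349694.1, was not placed. For Meg3 (chr12:109540746-109541045, plus strand) capitals mark a TATAAA motif that a search of both strands found 25 bases before the start, where it overlaps a match on the other strand, and for Peg3 (chr7:6730370-6730669, minus strand) they mark the palindrome GGGGCCCC.
Meg3: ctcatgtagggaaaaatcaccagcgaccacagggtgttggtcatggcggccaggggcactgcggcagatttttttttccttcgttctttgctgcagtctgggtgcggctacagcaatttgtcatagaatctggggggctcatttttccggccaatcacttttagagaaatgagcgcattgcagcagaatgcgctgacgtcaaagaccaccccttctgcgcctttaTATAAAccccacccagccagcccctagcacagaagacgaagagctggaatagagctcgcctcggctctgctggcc
Peg3: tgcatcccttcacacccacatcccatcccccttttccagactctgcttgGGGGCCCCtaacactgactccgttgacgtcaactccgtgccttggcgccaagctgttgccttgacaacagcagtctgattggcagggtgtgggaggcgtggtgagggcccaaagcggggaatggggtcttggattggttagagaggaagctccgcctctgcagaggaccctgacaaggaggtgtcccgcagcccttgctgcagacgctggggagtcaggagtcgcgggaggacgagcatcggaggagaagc
TATAAA occurred on either strand in 13.6% of all promoter windows and GGGGCCCC in 1.07%. H19 is the host of a microRNA whose hairpin (chr7:142577064-142577147, minus strand) lies in its exon 1, and its mature products are shown with the seed, bases 2 to 8, in capitals.
miR-675-5p: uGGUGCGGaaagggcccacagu
miR-675-3p: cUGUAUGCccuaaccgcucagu
The microRNAs themselves were not measured in these libraries.

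Expression in the cortical cells was given in TPM (transcripts per 1000000), which is scaled by transcript length, so that levels can be compared between genes. Over the 46 cultures Meg3, a long noncoding RNA, had the highest level of the 10 genes, with a lowest value of 425, a median of 1155 and a highest of 1871 TPM. Peg3, a zinc finger protein, had a median of 113 TPM (33.4 to 197), Rian, a noncoding RNA that hosts small nucleolar RNAs, 95 (18 to 178), and Cdkn1c, the cyclin-dependent kinase inhibitor p57, 74 (7.78 to 251). H19 and Ube3a, an E3 ubiquitin ligase, followed at 36.3 (2.10 to 190) and 27.2 (18.9 to 62.0) TPM. Plagl1, a zinc finger transcription factor, was at 12.9 (5.30 to 45.4), Snrpn, a core protein of spliceosomal ribonucleoproteins, at 4.16 (2.58 to 7.63), Dlk1, a transmembrane protein of the Notch ligand family, at 4.15 (0.426 to 38.8), and the growth factor Igf2 at 0.979 (0.271 to 4.46). The Meg3 range lay wholly above that of Peg3, and the ranges of all later neighbours in this order overlapped. Snurf, which shares the Snrpn transcripts, was listed at 47.4 to 131 TPM, so the low Snrpn level depends on how reads were divided between both symbols.

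**Figure D1:**
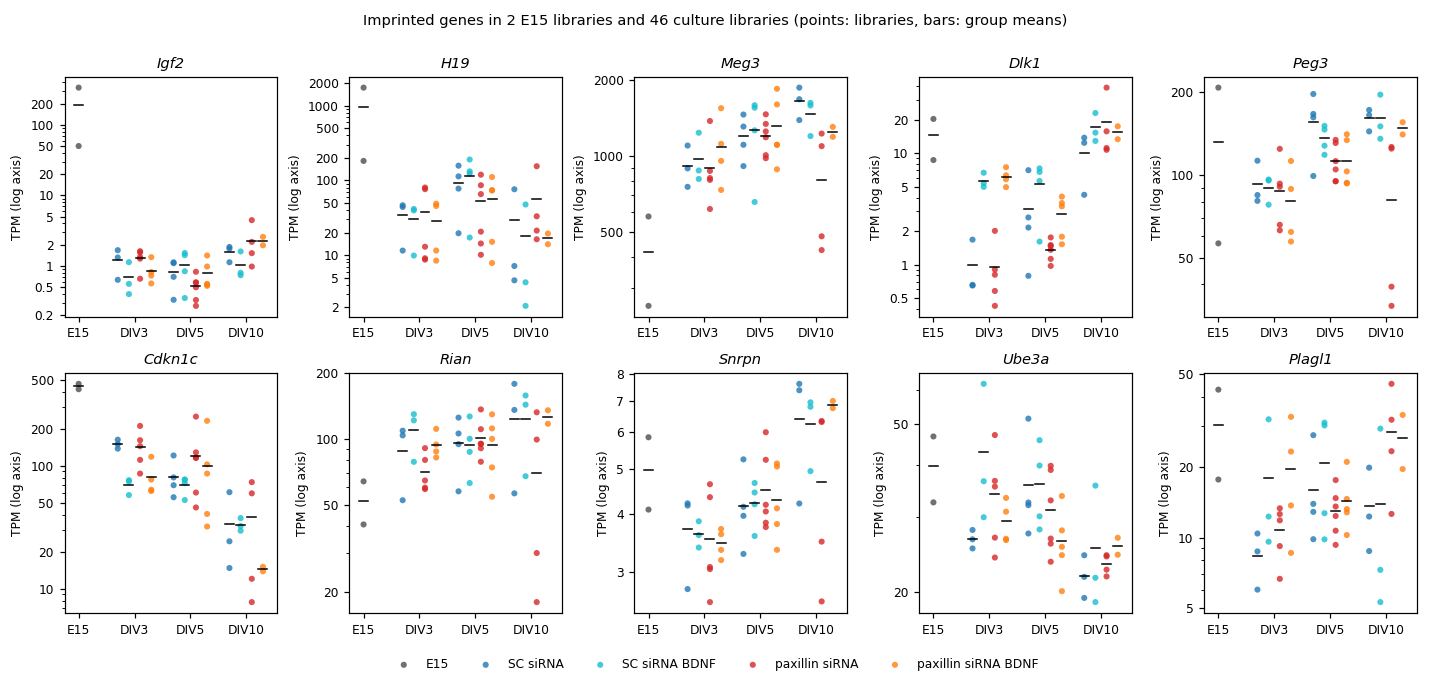
TPM of the 10 imprinted genes (log axis) in each of the 48 cortical libraries, grouped by day, siRNA and BDNF; each point is 1 library and each bar is the mean of its group. Igf2 stands at 50.1 and 338 TPM in the E15 libraries and at or below 4.46 TPM in every culture, while Dlk1 is higher and Cdkn1c lower at DIV10 than at DIV3.

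Several libraries stood apart from the rest of their group before any comparison. Of the E15 libraries, library 2 held 499 TPM of Ttr, the main choroid plexus transcript, and 53.3 TPM of the collagen gene Col1a1, against 0.0539 and 1.64 TPM in library 1. At DIV10, Mki67, a marker of dividing cells, was at 1.28 and 2.10 TPM in paxillin siRNA cultures 1 and 2 and at 3.34 and 9.51 TPM in SC siRNA culture 3 without and with BDNF, against 59.5 to 111 TPM in the other 8 libraries. The same 4 libraries held 503 to 969 TPM of Cdkn1a, the kinase inhibitor p21, against 23.4 to 49.8 TPM. In hippocampus, the libraries numbered 2 at P15 and P21 of both genotypes differed from the other 8: across genes their Pearson correlation with each other was 0.955 to 0.979, with the others 0.829 to 0.887, and 1021 genes were at least 4-fold lower in them than in the libraries numbered 1 of the same ages, against 8 that were at least 4-fold higher. Paxillin mRNA (Pxn), the siRNA target, was lower in every paxillin siRNA library than in every SC library at DIV5 (8.43 to 9.83 against 12.4 to 19.9 TPM), but the groups overlapped at DIV3 (7.79 to 11.4 against 9.16 to 11.7) and at DIV10 (11.5 to 18.8 against 8.99 to 19.9), and on all 3 days with BDNF.

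The comparison of the E15 libraries with SC siRNA cultures at DIV3 showed the largest differences of the imprinted genes. In the E15 libraries Igf2 was at 50.1 and 338 TPM, and in the 3 SC cultures at 1.67, 0.634 and 1.32 TPM. H19, which lies beside Igf2, was at 182 and 1734 TPM at E15 and at 44.0, 46.4 and 11.5 TPM at DIV3. Dlk1 was at 8.68 and 20.3 TPM and then at 1.67, 0.648 and 0.657 TPM. All 3 genes were therefore higher in both E15 libraries than in any of these cultures, with a wide gap between both E15 libraries. Tests were run with limma on log2(TPM + 1), on which the change of genes at low levels comes out too small. Igf2 fell by 5.93 ± 0.41 (SE; Benjamini-Hochberg adjusted p = 1.01e-13), H19 fell by 4.24 ± 1.32 (adjusted p = 0.0411) and Dlk1 fell by 2.89 ± 0.49 (adjusted p = 0.000206). Meg3 went the other way, from 256 and 578 TPM to 757, 896 and 1103 TPM (log2 difference 1.24 ± 0.39, adjusted p = 0.0424).

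Together with Meg3, 4 of the 10 genes passed an adjusted p of 0.05 (limma, 1 higher and 3 lower), against 8.11% of the 14250 genes tested. Cdkn1c (464 and 420 against 138, 163 and 150 TPM), Ube3a (32.6 and 46.6 against 26.6, 25.3 and 28) and Plagl1 (17.7 and 42.9 against 6.0, 8.73 and 10.4) were lower in every SC culture, but their adjusted p were 0.144, 0.229 and 0.0633. Peg3, Rian and Snrpn had log2 differences of -0.24, 0.71 and -0.34 and did not pass. The Igf2 call held in 11 of 11 alternative analyses (log2 difference -7.29 to -4.56). The others depended on single libraries. Without E15 library 2, H19 was at -2.61 (adjusted p = 0.560), Dlk1 at -2.32 (0.0704) and Meg3 at 1.82 (0.0655), without E15 library 1 Meg3 was at 0.65 (0.429) and Plagl1 at -2.26 (0.0442), and without any single SC culture of DIV3 the adjusted p ranged from 0.0562 to 0.167 for H19 and from 0.0562 to 0.156 for Meg3. The summed level of 6 choroid plexus markers was 0.374 and 538 TPM in the E15 libraries, that of 8 meningeal markers 35.1 and 248 TPM against 44.4 to 273 TPM at DIV3, and the endothelial marker Cldn5 was at 385 and 381 TPM at E15. Their part in these differences was not tested. As far as the E15 libraries differ from the cultures in embryonic age, time in culture and siRNA, these cannot be told apart in this comparison. Among 35 other imprinted genes measured above the filter (mean of at least 1 TPM), 2 rose and 1 fell, with a median log2 difference of -0.33 against -0.01 over all genes. Kcnk9, a potassium channel, rose from a mean of 7.88 to 78.8 TPM (3.12, adjusted p = 0.00102), and Rtl1, a retrotransposon-derived gene of the Dlk1 cluster, by 1.70 (adjusted p = 0.0176).

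During culture, Dlk1 rose and Cdkn1c fell. In SC siRNA cultures Dlk1 was at 1.67, 0.648 and 0.657 TPM on DIV3, at 2.15, 7.04, 0.792 and 2.65 TPM on DIV5 and at 13.8, 12.4 and 4.23 TPM on DIV10. Every DIV10 culture was above every DIV3 culture, whereas DIV5 overlapped both. From DIV3 to DIV10 Dlk1 rose by 2.38 ± 0.44 log2 units (adjusted p = 6.41e-05). Cdkn1c was at 138, 163 and 150 TPM on DIV3 and at 24.3, 61.0 and 14.7 TPM on DIV10, with no overlap, and fell by 2.37 ± 0.60 (adjusted p = 0.00218). Both calls held in 13 of 13 alternative analyses. Snrpn was at 4.17, 4.21 and 2.75 TPM and then at 7.63, 4.21 and 7.39 TPM, and rose by 0.63 ± 0.22 (adjusted p = 0.0229). Its groups met at 4.21 TPM, and the call was lost without SC DIV10 culture 1 (0.50, adjusted p = 0.125), without SC DIV10 culture 6 (0.52, 0.0957) or without SC DIV3 culture 3 (0.48, 0.137). Summed with Snurf, Snrpn rose by 0.81 (adjusted p = 0.00563), an analysis chosen after the values were seen, whereas its paralog Snrpb, whose protein takes the same place in the ribonucleoprotein of most cells, fell by 0.69.

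These were 3 of the 10 genes, against 35.2% of all genes in this comparison, so the share was no higher than the background. Meg3 (757, 896 and 1103 to 1392, 1871 and 1684 TPM) and Peg3 (84.5, 80.5 and 113 to 165, 144 and 172 TPM) were higher in every DIV10 culture, at adjusted p of 0.0550 and 0.0884. From DIV3 to DIV5 none of the 10 passed, against 9.47% of all genes (limma; 2 of the 10, Dlk1 and Peg3, had an unadjusted p under 0.05, as did 3350 of the 14250 genes tested). From DIV5 to DIV10 2 passed, against 24.9%: Dlk1 rose by 1.496 ± 0.41 (adjusted p = 0.00716) and Ube3a fell by 0.66 ± 0.23 (adjusted p = 0.0334). Without SC DIV10 culture 1 neither passed (1.22, adjusted p = 0.0695, and -0.58, 0.136), and the Ube3a call was lost in 7 of 14 alternatives. Without SC DIV10 culture 3 there were 4, against 22.8% of all genes in that fit, with H19 at -3.44, Cdkn1c at -1.99 and Snrpn at 0.74. Without SC DIV5 culture 3 the DIV3 to DIV5 change of Dlk1 passed as well (1.22, adjusted p = 0.0386). Rescaling the libraries by median ratio size factors moved the median of all genes by -0.14 from DIV3 to DIV5 and by 0.15 from DIV5 to DIV10, and the Ube3a difference on the rescaled values was -0.51 (adjusted p = 0.0996).

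The other culture arms gave the same direction for both genes. With paxillin siRNA Dlk1 was at 0.426 to 2.01 TPM on DIV3 (5 libraries) and at 38.8, 10.7, 11.1 and 15.7 TPM on DIV10, and rose by 3.22 ± 0.36 (adjusted p = 2.92e-09). Cdkn1c was at 86.4 to 211 TPM and then at 59.7, 73.6, 7.78 and 12 TPM, and fell by 2.36 ± 0.49 (adjusted p = 0.00012). Neither pair of groups overlapped, and both calls held in 16 of 16 alternatives. Ube3a fell by 0.49 ± 0.20 (adjusted p = 0.0384, lost in 10 of 16 alternatives), and Plagl1 rose by 1.22 ± 0.41 (adjusted p = 0.0123), a call lost without DIV10 culture 10 (0.96, adjusted p = 0.0654). These 4 of 10 stood against 54.3% of all genes. Without cultures 10 and 11, which have no SC library on any day, 5 passed, against 52.2% of all genes. Plagl1 did not pass (0.86, adjusted p = 0.214), and Meg3 (-0.97, adjusted p = 0.0187), Peg3 (-1.13, 0.00562) and Rian (-1.35, 0.00748) fell.

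In SC siRNA cultures with BDNF 3 of 10 passed, against 40.3% of all genes. Dlk1 rose by 1.40 ± 0.44 (adjusted p = 0.0102), from 5.37, 4.98 and 6.68 to 15.3, 22.9 and 12.9 TPM, Snrpn rose by 0.64 ± 0.22 (0.0190), and Ube3a fell by 0.72 ± 0.25 (0.0192). Here cultures of the same number deviated together, and with that number as a replicate block 5 passed, against 51.3% of all genes in that fit, with Peg3 (0.82, adjusted p = 0.0123) and Cdkn1c (-1.04, 0.0122) added. Without DIV10 culture 2 none passed (Dlk1 1.18, adjusted p = 0.0614, Snrpn 0.58, 0.0698, Ube3a -0.54, 0.124), against 32.3% of all genes, and without DIV10 culture 1 a single gene did, against 33.1%. With paxillin siRNA and BDNF 3 of 10 passed, against 32.7%. Cdkn1c fell by 2.35 ± 0.64 (adjusted p = 0.00412, held in 12 of 12 alternatives), from 77.3, 118, 63.9 and 62.3 to 13.9 and 15.1 TPM, Snrpn rose by 0.82 ± 0.23 (0.00594), and Dlk1 rose by 1.20 ± 0.47 (0.0448, lost in 7 of 12). Without DIV10 culture 11 Cdkn1c alone passed, against 18.5% of all genes (Dlk1 1.38, adjusted p = 0.112, Snrpn 0.80, 0.0619). Differences between the 4 arms in these time courses were not tested. Dividing progenitor markers were summed at 321 to 371 TPM on DIV3 and 79.2 to 212 TPM on DIV10 in SC cultures, meningeal markers at 44.4 to 273 and 7.26 to 14.7 TPM, and neuronal markers at 4202 to 5330 and 1267 to 2741 TPM. All 3 sums were lower together with Cdkn1c, but genes of the neuronal list went in both directions. In SC cultures Tubb3, a neuronal tubulin, was at 2095 to 2934 TPM on DIV3 and at 433 to 953 TPM on DIV10. Slc17a7, a vesicular glutamate transporter of excitatory neurons, was at 53.3 to 115 and 417 to 1699 TPM. Glial markers were higher together with Dlk1 in the same cultures, with sums from DIV3 to DIV10 of 212 to 822 and 1376 to 8503 TPM for astrocytes, 69.8 to 172 and 703 to 1685 TPM for oligodendrocytes, and 35.3 to 51.3 and 170 to 971 TPM for microglia. None of these SC ranges overlapped between the days. With paxillin siRNA the astrocyte sum went from 263 and 414 to 7543 and 8705 TPM in cultures 10 and 11. In cultures 1 and 2 it went from 945 and 962 to 1236 and 940 TPM. Microglia markers there went from 75.9 and 49.5 to 195 and 256 TPM, and oligodendrocyte markers from 148 and 172 to 171 and 588 TPM. In cultures 10 and 11 microglia markers went from 21.2 and 27.0 to 819 and 1553 TPM. Oligodendrocyte markers there went from 50.1 and 111 to 2302 and 2606 TPM. Dlk1 in cultures 1 and 2 went from 2.01 and 0.903 to 38.8 and 10.7 TPM. In cultures 10 and 11 Dlk1 went from 0.426 and 0.579 to 11.1 and 15.7 TPM. The part of these lists in the fall of Cdkn1c and the rise of Dlk1 was not tested.

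Other imprinted genes changed in both directions over DIV3 to DIV10. In SC cultures 7 of 35 rose and 4 fell, with a median log2 difference of -0.07 against -0.04 over all genes. With paxillin siRNA 6 rose and 13 fell (median -0.20 against -0.11), with BDNF and SC siRNA 5 rose and 6 fell (-0.13 against -0.07), and with both 6 rose and 4 fell (-0.04 against -0.07). Of all genes, 35.2, 54.3, 40.3 and 32.7% passed in these 4 arms, in that order. Rasgrf1, a guanine nucleotide exchange factor of neurons, rose by 2.38 in SC cultures, by 0.99 with paxillin siRNA, by 2.30 with BDNF and by 2.34 with BDNF and paxillin siRNA. Gnas, which encodes a stimulatory G protein subunit, rose by 0.41, 0.48, 0.52 and 0.48 in the same order, and Nnat, which encodes neuronatin, fell in all 4 arms (log2 differences -1.42, -1.97, -2.42 and -2.19). Among 12 tested genes of the IGF axis, which bind or transmit Igf2 or its mRNA, Igf2bp1, an RNA-binding protein of fetal tissue, fell by 2.19, 2.62, 2.29 and 2.75 in SC, paxillin, SC with BDNF and paxillin with BDNF. Of the 7 paralogs, Cdkn1a, which belongs to the same family of kinase inhibitors as Cdkn1c, rose by 2.91 in SC and by 3.72 with paxillin siRNA, with 503 TPM in SC culture 3 and 969 and 694 TPM in paxillin cultures 1 and 2 against 28.2 to 49.8 TPM in the other DIV10 libraries of these arms.

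BDNF at DIV3 went with a higher Dlk1 level under either siRNA. With SC siRNA Dlk1 was at 1.67, 0.648 and 0.657 TPM without BDNF and at 5.37, 4.98 and 6.68 TPM with it, a ratio of means of 5.72. With paxillin siRNA it was at 2.01, 0.903, 0.810, 0.426 and 0.579 TPM without BDNF and at 7.49, 4.96, 5.84 and 6.33 TPM with it, a ratio of 6.51. The groups did not overlap, and the level was higher with BDNF in 3 of 3 and in 4 of 4 cultures of the same number. By limma Dlk1 rose by 1.77 ± 0.44 (adjusted p = 0.0286) with SC siRNA and by 1.92 ± 0.36 (adjusted p = 0.00107) with paxillin siRNA. It was the only one of the 10 genes to pass in either comparison, against 1.21% and 2.14% of all genes.

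With SC siRNA the Dlk1 call was lost in 5 of 13 alternatives, each of which left out cultures, at nearly the same size. The values were 1.66 (adjusted p = 0.152) without SC culture 2, 1.66 (0.115) without SC culture 3, 1.80 (0.117) without BDNF culture 1, 1.67 (0.117) without BDNF culture 3 and 1.77 (0.0644) without cultures 10 and 11. With paxillin siRNA it held in 15 of 16 and was lost without cultures 10 and 11 (1.71, adjusted p = 0.310). The culture number paired the libraries at DIV3, and with it as a replicate block Ube3a rose as well with SC siRNA (0.60, adjusted p = 0.0183; 36.5, 30.03 and 62.0 against 26.6, 25.3 and 28 TPM) and Plagl1 with paxillin siRNA (0.80, adjusted p = 0.0442), so that 2 of the 10 stood against 4.01 and 5.49% of all genes in that fit. Cdkn1c was at 57.8, 76.4 and 74.4 TPM with BDNF and SC siRNA, below all 3 cultures without it, but the difference of -1.11 ± 0.60 did not pass (adjusted p = 0.554). With paxillin siRNA it was lower in 4 of 4 cultures of the same number (-0.81, adjusted p = 0.544). Meningeal markers covered the same range with and without BDNF, 50.8 to 244 and 44.4 to 273 TPM with SC siRNA, and 39.0 to 274 and 36.2 to 314 TPM with paxillin siRNA. The sum of neuronal markers was 3118 to 4316 TPM with and 4202 to 5330 TPM without BDNF under SC siRNA. Under paxillin siRNA it was 3160 to 3735 against 4027 to 5468 TPM, with no overlap. Genes of this list went in both directions. Tubb3 was lower with BDNF, at 1450 to 1604 against 2095 to 2934 TPM under SC siRNA. Under paxillin siRNA it was at 1227 to 1682 against 1888 to 2727 TPM, and neither pair of ranges overlapped. Slc17a7 was at 59.5 to 340 against 53.3 to 115 TPM under SC siRNA, higher with BDNF in each same-numbered pair. Under paxillin siRNA it was at 146 to 233 against 49.9 to 104 TPM, with no overlap. The part of these markers in the Dlk1 difference was not tested.

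**Figure D2:**
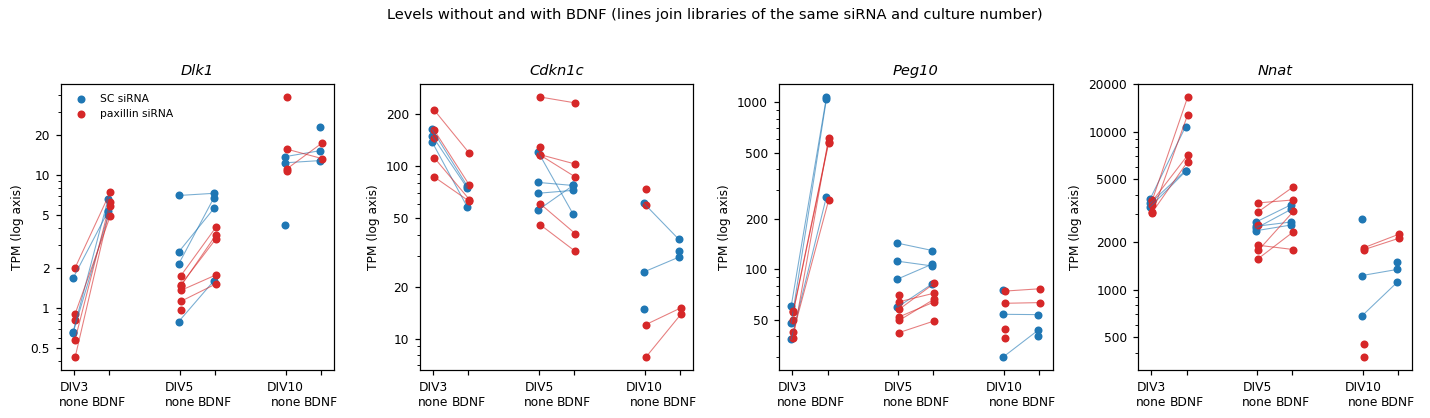
TPM (log axis) of Dlk1, Cdkn1c, Peg10 and Nnat without and with BDNF at DIV3, DIV5 and DIV10; points are libraries, lines join libraries of the same siRNA and culture number, blue is SC and red is paxillin siRNA. At DIV3 every Dlk1 and Peg10 line rises, Dlk1 from at most 2.01 to at least 4.96 TPM, while at DIV10 Dlk1 ranges overlap.

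At later days the BDNF difference of Dlk1 was smaller. At DIV5 it was 0.69 with SC siRNA (adjusted p = 0.630, higher in 4 of 4 cultures) and 0.66 with paxillin siRNA (adjusted p = 0.723, higher in 5 of 5). At DIV10 Dlk1 was at 13.8, 12.4 and 4.23 TPM without and 15.3, 22.9 and 12.9 TPM with BDNF in SC cultures. In paxillin siRNA cultures it was at 38.8, 10.7, 11.1 and 15.7 TPM without and 17.4 and 13.3 TPM with BDNF. There it was higher with BDNF in 1 of 2 cultures of the same number. None of the 10 genes passed in SC cultures at DIV5, against 0.0491% of all genes, or at DIV10, against 0%, nor with paxillin siRNA at DIV5, against 0.014%, or at DIV10, against 0.014% (limma). Of the 10, 0, 0, 1 and 4 had an unadjusted p under 0.05 in these comparisons, in that order. Of the 14250 genes tested, 1268, 352, 981 and 2568 did. At DIV10 with paxillin siRNA, where only cultures 10 and 11 received BDNF, Peg3 and Rian passed without the BDNF-free library of culture 10 (1.41, adjusted p = 0.0346, and 1.70, 0.0346) or of culture 11 (1.41, 0.0300, and 1.57, 0.0446), against 6.99 and 8.13% of all genes. Whether the BDNF difference of Dlk1 differed between days was not tested. The BDNF difference with paxillin siRNA minus that with SC siRNA at DIV5 was tested and passed for none of the 10, against 0% of all genes (limma; 0 of the 10 and 116 of the 14250 genes tested had an unadjusted p under 0.05).

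Among the other imprinted genes at DIV3, 2 of 35 rose with BDNF under SC siRNA (median 0.09 against -0.01 over all genes) and 2 under paxillin siRNA (0.04 against -0.02), and none fell. Of all genes, 1.21 and 2.14% passed. Peg10, a retrotransposon-derived gene, was at 38.0 to 60.2 TPM without and 273 to 1077 TPM with BDNF under SC siRNA (3.79 ± 0.46, adjusted p = 9.18e-07), and at 39.0 to 56.3 and 259 to 610 TPM under paxillin siRNA (3.29 ± 0.37, adjusted p = 1.16e-07). Peg10 ranges did not overlap at DIV3, and at later days the ratios of means with to without BDNF were between 0.86 and 1.27. Zdbf2 rose under SC siRNA from a mean of 4.14 to 14 TPM (1.48, adjusted p = 0.0359), and Nnat under paxillin siRNA from 3393 to 10752 TPM (1.56, adjusted p = 0.0125). No gene of the IGF axis and no paralog passed in either comparison.

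Paxillin siRNA was compared with SC siRNA on each day, with the same SC libraries that served as the reference above. Lower Meg3 and Peg3 at DIV10 were the differences that passed. Meg3 was at 425, 482, 1231 and 1097 TPM in paxillin siRNA cultures 1, 2, 10 and 11 and at 1392, 1871 and 1684 TPM in SC cultures 1, 3 and 6. Peg3 was at 33.4, 39.2, 126 and 125 TPM against 165, 144 and 172 TPM. The groups did not overlap, but cultures 1 and 2 were far below cultures 10 and 11. Meg3 fell by 1.17 ± 0.33 (adjusted p = 0.0466) and Peg3 by 1.23 ± 0.35 (adjusted p = 0.0473), and these 2 of 10 stood against 2.58% of all genes. Rian, at 18, 30.1, 132 and 99.3 against 136, 56.4 and 178 TPM, did not pass (-1.08, adjusted p = 0.117).

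Both calls lay close to the threshold and depended on single libraries. For Meg3 the difference was -0.92 (adjusted p = 0.291) without paxillin culture 1, -0.98 (0.166) without culture 2, -1.29 (0.146) without SC culture 1 and -1.15 (0.153) without SC culture 6. For Peg3 it was -0.90 (0.313), -0.97 (0.177), -1.21 (0.177) and -1.18 (0.159). Rescaling the libraries moved the median of all genes by 0.11 here, the differences were then -1.06 (adjusted p = 0.0520) and -1.12 (0.0513), and the share of higher genes among all those called went from 15.5 to 53.5%. Without SC culture 3, 4 of the 10 passed, against 18.7% of all genes in that fit, with Rian (-1.56, adjusted p = 0.0208) and Snrpn (-0.65, 0.0370) added, and Rian also passed without paxillin culture 10 (-1.52, 0.0179) or 11 (-1.39, 0.0308). Without cultures 10 and 11, 5 passed, against 36.9% of all genes in that fit, with Rian at -2.21 (adjusted p = 0.000406), Snrpn at -0.85 and Cdkn1c at 1.21 added, the last with its direction turned from -0.12, and the paxillin group then consisted of the cultures with 1.28 and 2.10 TPM of Mki67. Paxillin cultures 1 and 2 also had the lowest sums of neuronal markers (471 and 850 TPM), astrocyte markers (1236 and 940 TPM) and oligodendrocyte markers (171 and 588 TPM) of the 12 DIV10 libraries, against 1267 to 2741, 1376 to 8503 and 703 to 1685 TPM in the SC cultures. Slc17a7, a vesicular glutamate transporter of excitatory neurons, was at 158 and 324 TPM in them and at 417 to 1699 TPM in the SC cultures. The part of low Mki67, high Cdkn1a and these markers in the differences was not tested. Pxn itself overlapped between the groups on this day.

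**Figure D3:**
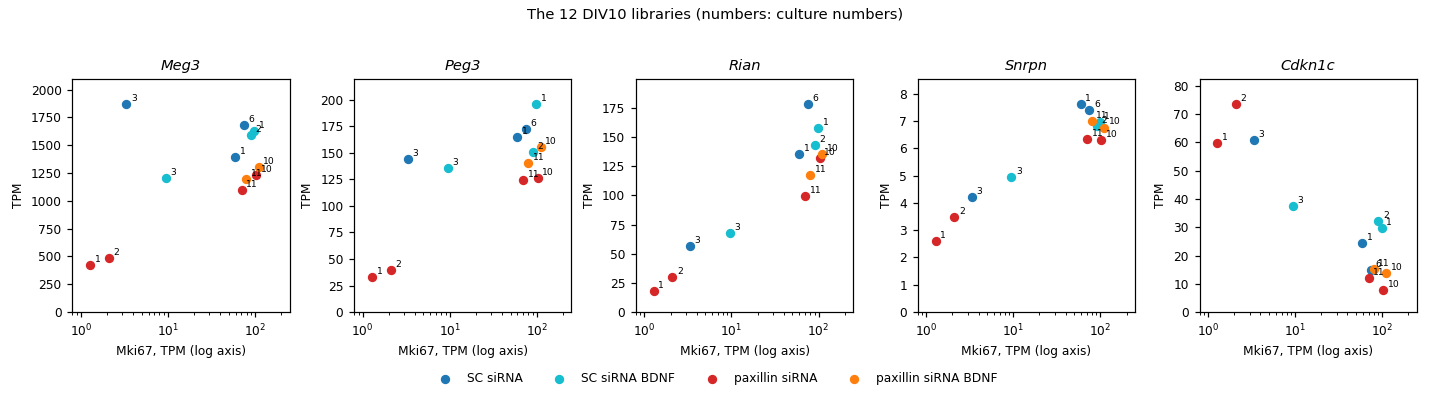
TPM of Meg3, Peg3, Rian, Snrpn and Cdkn1c (y axes) against TPM of Mki67 (x axis, log scale) in the 12 DIV10 libraries, each marked with its culture number and coloured by siRNA and BDNF. Paxillin siRNA cultures 1 and 2, at 1.28 and 2.10 TPM of Mki67, have the lowest Meg3, Peg3, Rian and Snrpn values, and SC culture 3 has low Mki67 with Meg3 at 1871 TPM.

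At DIV3 none of the 10 passed between the siRNAs, against 0% of all genes (limma; 0 of the 10 and 21 of the 14250 genes tested had an unadjusted p under 0.05). At DIV5 none passed, against 6.18% (limma; 0 of the 10 with an unadjusted p under 0.05), although 880 genes did. There the culture number paired the libraries, and with it as a replicate block Peg3 fell by 0.67 (adjusted p = 0.0279), from 197, 167, 99.1 and 162 TPM in SC cultures 1 to 4 to 94.9, 112, 94.9 and 105 TPM in paxillin cultures 1 to 4, with 131 and 134 TPM in cultures 10 and 11. Cdkn1c rose by 0.91 in the same analysis (adjusted p = 0.0191), from 55.5, 69.5, 121 and 80.4 to 116, 116, 128 and 251 TPM in cultures 1 to 4, with 45.8 and 60.5 TPM in cultures 10 and 11. These 2 of 10 stood against 22.7% of all genes in that fit, which used the values without rescaling. In cultures 1 to 4 both genes thus differed in 4 of 4 cultures of the same number. Astrocyte markers also differed in 4 of 4, with sums of 4190, 6861, 1204 and 8235 TPM with SC siRNA and 1965, 1807, 1013 and 1527 TPM with paxillin siRNA, and neuronal markers were higher with paxillin siRNA in cultures 1, 2 and 4 (3044, 2487 and 2869 against 2077, 1491 and 1627 TPM). The part of these markers in the Peg3 and Cdkn1c differences was not tested. With BDNF none of the 10 passed at DIV3, against 0%, at DIV5, against 0.596%, or at DIV10, against 0.0211% (limma; on each day 1 of the 10 had an unadjusted p under 0.05, Ube3a, Ube3a and Plagl1). Over all genes, 229, 2661 and 1023 had such a p. Rescaling took the calls over all genes with BDNF at DIV5 from 85 to 4. The siRNA difference at DIV10 minus that at DIV5 passed for none, against 5.76% (limma; Meg3, Dlk1 and Rian had an unadjusted p under 0.05, as did 3599 of all genes), with Meg3 at -1.19 (adjusted p = 0.080) and Dlk1 at 1.41 (0.098).

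Other imprinted genes gave few calls between the siRNAs. At DIV10, 2 of 35 fell and none rose (median -0.27 against -0.06 over all genes): Rtl1 (-1.34, adjusted p = 0.0473), at 14, 27.0, 56.6 and 49.7 against 72.3, 110 and 72.4 TPM, and Rasgrf1 (-1.29, adjusted p = 0.0393). At DIV5 Peg12 fell by 0.72 (median of the list -0.03 against -0.08), and at DIV3 none of the 35 passed (0.01 against 0.01). Of all genes, 2.58, 6.18 and 0% passed at DIV10, DIV5 and DIV3. Plagl2, the paralog of Plagl1, fell by 0.55 at DIV5 and by 0.50 at DIV5 with BDNF. No gene of the IGF axis passed.

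Levels also differed between cultures of different number. In an F test by limma that kept day, siRNA and BDNF, 9 of the 10, all but Igf2 (adjusted p = 0.223), differed between culture numbers, against 64.7% of all genes. This test was chosen after the values were seen. H19, for example, had a median of 73.2 TPM over the 11 libraries of culture 1, 55.9 over 10 of culture 2, 18.4 over 8 of culture 3, 138 over 4 of culture 4, and 9.60 and 14.7 over 6 each of cultures 10 and 11. Since cultures 10 and 11 all received paxillin siRNA, a mean over the paxillin libraries holds cultures that the SC mean lacks.

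Across the 46 cultures, which share culture numbers and days, the imprinted genes of the chromosome 12 cluster did not all vary alike. Meg3 and Rian had a Pearson correlation of 0.67 on log2(TPM + 1) and Meg3 and Peg3, on another chromosome, of 0.81, whereas Meg3 and Dlk1 had -0.02. Cdkn1c and Snrpn had -0.79. After the group means were subtracted, the values were 0.60, 0.77, -0.34 and -0.80. The gene most like Snrpn was Snurf (0.99), which shares its transcripts. Most like Meg3 were Kiss1r (0.85), Rtl1 (0.83) and Peg3, most like Dlk1 Adipor1 (0.88), most like Cdkn1c Tdp1 (0.89), most like Rian Reep5 (0.90), most like Peg3 Cpeb3 (0.86), most like Ube3a Zfp955a (0.95), most like H19 Mical1 (0.81), most like Plagl1 Socs6 (0.79) and most like Igf2 Cavin1 (0.78). These are descriptions over libraries that are not independent.

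In hippocampus levels are given as long reads and as reads per 1000000 reads of the library (CPM), not scaled by length. The cDNA was amplified by PCR, and no collapsing of reads by molecular identifier is described, so several reads can come from 1 molecule. Libraries held 3162777 to 5687908 reads. Igf2, Meg3, Rian, Snrpn and Peg3 were detected with 141 to 1283 reads in every library, whereas H19 had 0 to 16 reads, Dlk1 1 to 9, and Plagl1 28 to 103. The 0 reads of H19 and Cdkn1c in control P21 library 2 allow a level of up to 0.846 CPM (3 reads of 3547152, counting error only). Dlk1 was too low to be tested, so 9 of the 10 genes entered edgeR's quasi-likelihood test. No read was assigned to Snurf, so in this tissue all reads of the shared transcripts stood under Snrpn.

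**Figure D4:**
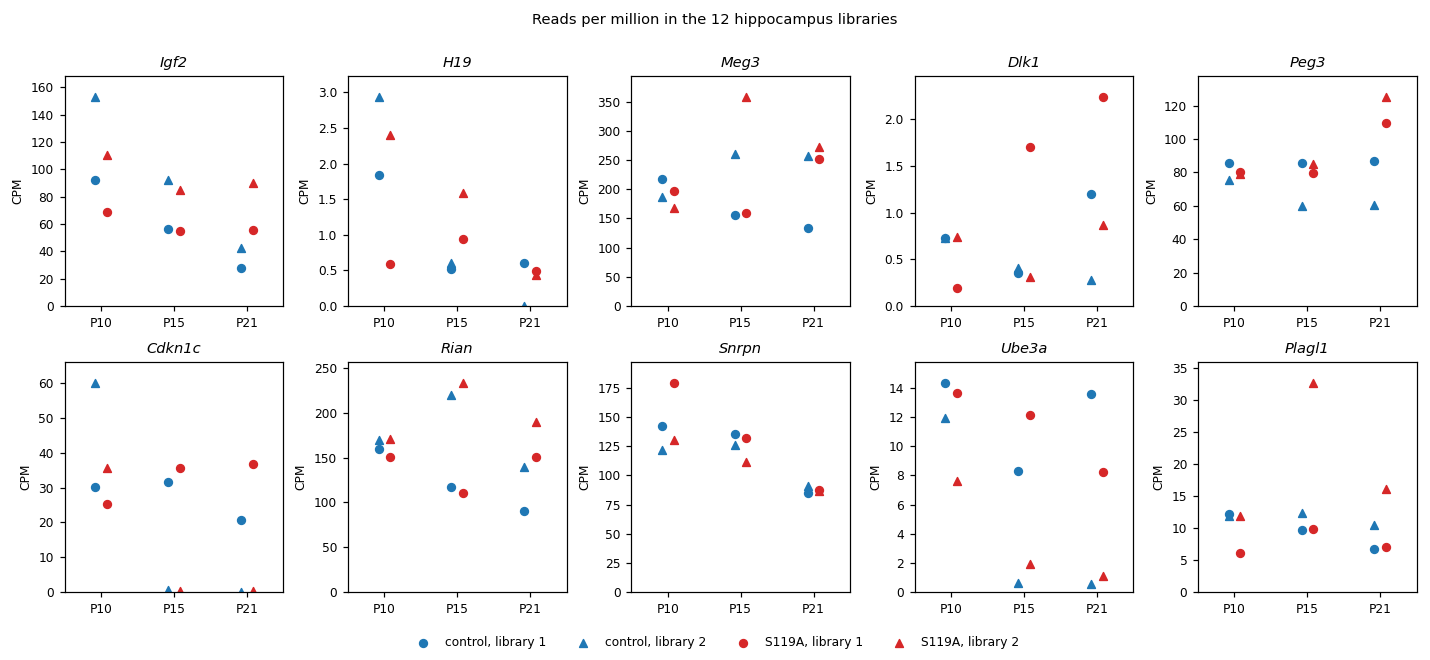
CPM of the 10 imprinted genes in the 12 hippocampus libraries at P10, P15 and P21; circles are libraries numbered 1 and triangles libraries numbered 2, blue is control and red is S119A. Snrpn lies at 122 to 179 CPM at P10 and at 84.8 to 91.3 CPM at P21, and Cdkn1c and Ube3a are near 0 in the libraries numbered 2 at P15 and P21.

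Snrpn fell with age in hippocampus. Its level was 143 and 122 CPM in control and 179 and 130 CPM in S119A at P10, 136 and 126 and 132 and 112 CPM at P15, and 84.8 and 91.3 and 87.5 and 86.3 CPM at P21. All 4 libraries of P21 lay below all 8 of the younger ages, and those of P10 and P15 overlapped. From P10 to P21 Snrpn fell by 0.70 ± 0.15 (edgeR, SE, adjusted p = 0.0224). It was the only one of 9 to pass, against 10.7% of the 13557 genes tested. DESeq2 gave -0.69 (adjusted p = 0.000447). The call was lost in 6 of 19 alternatives, each without a library: -0.61 (adjusted p = 0.103) and -0.74 (0.0625) without control P10 library 1 or 2, -0.56 (0.0909) without S119A P10 library 1, -0.65 (0.0600) without control P21 library 1, and -0.71 (0.0545) and -0.68 (0.0811) without S119A P21 library 1 or 2. Over the same ages oligodendrocyte markers summed to 347 to 480 CPM at P10, 707 to 2306 CPM at P15 and 3923 to 6296 CPM at P21, and astrocyte markers to 2335 to 2593, 3371 to 4436 and 3353 to 4292 CPM, whereas neuronal markers overlapped between P10 and P21 (7667 to 8182 and 7036 to 8394 CPM). The part of these markers in the Snrpn difference was not tested. The sign was opposite to that of the cultures from DIV3 to DIV10, where age, tissue, read type and the division of reads between Snrpn and Snurf all differ.

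Igf2 was at 91.9, 153, 69.1 and 110 CPM at P10 (controls 1 and 2, then S119A 1 and 2), at 56.4, 92.4, 55.0 and 84.7 CPM at P15 and at 28.1, 42.3, 55.9 and 89.8 CPM at P21. The ages overlapped, and within each group the library numbered 2 was the higher. The difference from P10 to P21 was -1.03 ± 0.33 and did not pass (edgeR, adjusted p = 0.0864), whereas DESeq2 gave an adjusted p of 0.0407. The summed level of choroid plexus markers was 56.3 to 7905 CPM over the 12 libraries and that of meningeal markers 65.9 to 284 CPM. At P10 the choroid plexus sum was 186, 5407, 2041 and 547 CPM in the order given for Igf2, and at P21 56.3, 86.5, 1605 and 3427 CPM. At P21 both S119A libraries, which held more Igf2 than both controls, also held more of these markers, and their part in the Igf2 level was not tested. H19 had 10, 16, 3 and 13 reads at P10 and 3, 0, 2 and 2 at P21 (-2.19, adjusted p = 0.0742).

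From P10 to P15 none of 9 passed, against 2.32% of all genes (edgeR and DESeq2; 0 of 9 and 2531 of the 13557 genes tested had an unadjusted p under 0.05 by edgeR). From P15 to P21 none passed by edgeR, against 0.00738% (1 of 9, Snrpn, had an unadjusted p under 0.05, as did 1239 of all genes), with Snrpn at -0.57 (adjusted p = 0.326), and by DESeq2 Snrpn passed (-0.58, adjusted p = 0.0437). Meg3 was at 134 to 358 CPM, Rian at 90.0 to 233 CPM and Peg3 at 60.1 to 125 CPM over the 12 libraries, with overlap between all ages. Cdkn1c was, among the 10, the gene most altered in the libraries that stood apart. It had 164, 327, 128 and 193 reads at P10, 179 and 188 at P15 and 103 and 148 at P21 in the libraries numbered 1, and 3, 1, 0 and 1 in those numbered 2 at P15 and P21. Ube3a had 41 to 78 reads at P10, 33 to 68 in the libraries numbered 1 of P15 and P21, and 3, 6, 2 and 5 in those numbered 2. In the same 4 libraries dividing progenitor markers summed to 10.4 to 18 CPM, against 126 to 264 CPM in the other 8. The part of these markers in the Cdkn1c and Ube3a values was not tested.

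Without these 4 libraries, which leaves 1 per genotype at P15 and P21, 3 of 10 genes passed from P10 to P21, against 35.2% of 13738 genes. Igf2 fell by 1.39 (adjusted p = 0.000297), Rian by 0.47 (0.00384) and Snrpn by 0.72 (0.00105), while Cdkn1c (-0.42, adjusted p = 0.192), Peg3 (0.29, 0.0515), H19 (-1.75, 0.0925) and Dlk1 (1.44, 0.110) did not pass. From P10 to P15 Igf2 (-0.90, adjusted p = 0.00932) and Rian (-0.50, 0.00521) fell, 2 of 10 against 16.7%. For Rian this turned the direction, since its difference with all 12 libraries was 0.14. From P15 to P21 Snrpn fell by 0.64 (adjusted p = 0.0379), 1 of 10 against 3.15%. The Snrpn difference was thus of like size with and without these libraries.

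Of 33 other imprinted genes tested, 4 rose and 5 fell from P10 to P21, with a median of 0.03 against -0.00 over all genes. Past the threshold were 10.7, 2.32 and 0.00738% of all genes from P10 to P21, P10 to P15 and P15 to P21. Mkrn3, which encodes a ring finger protein and lies in the Snrpn cluster, was at 73.3 to 90.5 CPM at P10, 40.8 to 67.2 CPM at P15 and 7.05 to 13.7 CPM at P21, with no overlap between ages. It fell by 2.88 from P10 to P21 (edgeR, adjusted p = 0.000783). From P15 to P21 it was the single gene of the 33 that passed (-2.37, adjusted p = 0.0373; median of the list -0.15 against -0.01). Rasgrf1 rose from a mean of 143 to 404 CPM (1.496, adjusted p = 0.00116), and from P10 to P15 it was the single gene of the list to pass (1.03, adjusted p = 0.0146; median 0.13 against -0.00). Of 8 IGF axis genes Igfbp6, an IGF-binding protein with preference for Igf2, rose by 3.10 (adjusted p = 0.0213), from a mean of 5.64 to 46.3 CPM, and of 6 paralogs Cdkn1a fell.

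No difference between the genotypes passed the threshold for the 10 genes. Over the 3 ages none of 9 passed, against 0% of all genes (edgeR and DESeq2; 0 of 9 and 121 of the 13557 genes tested had an unadjusted p under 0.05 by edgeR), and without the 4 libraries that stood apart none of 10 passed, against 0% (edgeR). The change from P10 to P21 in S119A minus that in control was tested and passed for none, against 0% (edgeR; 0 of 9 and 165 of all genes had an unadjusted p under 0.05), with Igf2 at 1.36 ± 0.65. Pxn was at 10.6 and 23.3 CPM in control and 7.70 and 12.6 CPM in S119A at P10, 20.6 and 15 against 8.89 and 9.49 CPM at P15, and 17.8 and 6.77 against 15.4 and 9.73 CPM at P21. The groups overlapped at P10 and P21. The S119A allele is itself transcribed, so Pxn reads do not measure the exchange of alleles.

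Long reads were also assigned to transcripts, which gives the share of a gene's reads that each RefSeq transcript took. For 5 genes with enough reads the share of the most abundant transcript was compared between P10 and P21 by a two-sided exact permutation test over libraries, 4 against 4, which cannot give a p below 0.0286. With 5 tests, that smallest p in a single gene is adjusted to 0.143, so no single gene could pass. The Meg3 transcript NR_027652.1 took a mean of 59.2% at P10 and 56.8% at P21 (p = 0.0286, exact permutation, adjusted p = 0.143 over the 5 tests). The main transcripts of Igf2 (91.2 and 89.0%, p = 0.171), Peg3 (78.5 and 72.1%, p = 0.314), Plagl1 (98.1 and 92.4%, p = 0.0571) and Snrpn (56.2 and 55.5%, p = 0.743) were compared by the same exact permutation test. The Meg3 shares met at 58.2% between the ages.

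**Figure D5:**
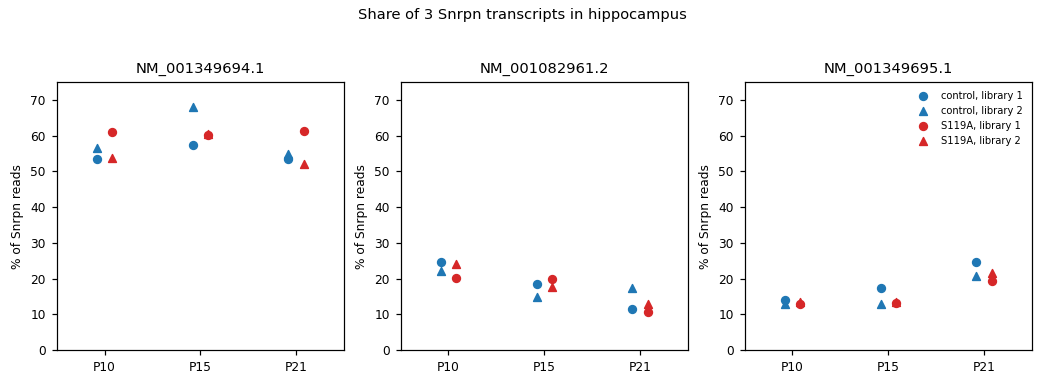
Percent of Snrpn reads assigned to the transcripts NM_001349694.1, NM_001082961.2 and NM_001349695.1 in each of the 12 hippocampus libraries at P10, P15 and P21. NM_001082961.2 falls from a mean of 22.8% to 13.1% and NM_001349695.1 goes from 13.4% to 21.6%, while NM_001349694.1 stays between 52.1 and 68.1%.

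Less abundant Snrpn transcripts, picked after their values were seen and therefore not tested, moved in opposite directions. NM_001082961.2 took 22.8% ± 1.99 (SD, n = 4) of the reads at P10, 17.8% ± 2.13 at P15 and 13.1% ± 2.91 at P21, and its P10 and P21 libraries did not overlap (20.3 to 24.6 against 10.8 to 17.3%). NM_001349695.1 took 13.4% ± 0.61, 14.3% ± 2.02 and 21.6% ± 2.29, with P21 libraries at 19.3 to 24.7% above all others. The most abundant transcript, NM_001349694.1, was at 56.2, 61.6 and 55.5%.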

How the data were processed

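The 10 genes, the other gene lists and the markers were chosen with earlier results of these data known. Cortical libraries were made with SureSelect XT HS2 mRNA kits, and the authors aligned the reads with STAR 2.7.10 to GRCm38.p6 and deposited TPM values from RSEM 1.3.3, which sum to 1000000 in each library, so that the depth behind a value is unknown and no counting interval can be given. Hippocampal cDNA (SMART-Seq, amplified by PCR, with selection of long fragments) was sequenced on a Nanopore PromethION, aligned by the authors with minimap2 to mm10, and deposited as read counts for 122459 transcripts from IsoQuant 3.6.3. Of these, 119253 were matched to a RefSeq gene and summed, and the others held 1.79% of the reads. The strand setting of the counting is not given in the sources used here, so overlapping and antisense transcripts may share reads.

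TPM values were tested as log2(TPM + 1) with limma 3.58.1 in R 4.3.3, in 1 fit over all 12 culture groups and E15, for the 14250 genes whose mean TPM reached 1. Hippocampal counts were tested with edgeR 4.0.16 (quasi-likelihood, TMM, all 6 groups, 13557 genes) and with DESeq2 1.42.0 as an alternative. P-values were adjusted over all genes tested by the Benjamini-Hochberg method at a threshold of 0.05. Most genes of the other lists were named because they had the largest changes past the threshold, but not every such gene was named. Gnas was named outside this rule, as was Cdkn1a in hippocampus. For each of the 10, the genes with the highest Pearson correlation over the 46 cultures were named. Transcript shares were compared by exact permutation tests. Alternatives were another pseudocount, no filter, other size factors, only the groups compared, culture or library number as a replicate block, a term for the series of library numbers, leaving out cultures 10 and 11, the 4 hippocampal libraries that stood apart, or each library in turn. The sum of Snrpn and Snurf, the F test between culture numbers and the further transcript shares were added after seeing the data.

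Same-numbered cultures were taken as pairs where every pair's deviations from the group means correlated above 0.1 over at least 3 pairs. Some pairs joined libraries whose numbers belong to different series. Among them were cultures 1 and 2 at DIV5, both between the siRNAs and between SC siRNA with and without BDNF. What the series stand for is not stated. This held for BDNF with SC siRNA at DIV3 (r = 0.29 to 0.56) and DIV5 (0.51 to 0.79), BDNF with paxillin siRNA at DIV3 (0.44 to 0.74) and DIV5 (0.32 to 0.78), paxillin against SC siRNA at DIV3 (0.28 to 0.81) and DIV5 (0.24 to 0.49), and DIV3 to DIV10 with SC siRNA and BDNF (0.30 to 0.54). On simulated data, limma recovered 78.5% of 200 genes changed by a log2 of 1 in the siRNA comparison at DIV5 and 64.5% in the BDNF comparison with SC siRNA at DIV3 (14250 genes). The changed genes were drawn only from genes above a mean TPM that Snrpn (4.50 TPM over all 48 libraries) did not reach. The recovery therefore does not cover genes at that level or lower. edgeR recovered 0, 64.5 and 90% of genes changed by a log2 of 1, 2 and 3 from P10 to P21, and 71.5, 98 and 100% without the 4 libraries that stood apart.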

Additional observations from a re-analysis of the deposited data

Results flagged for a closer look

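In a search of 70 groups of 4 to 10 libraries, 1 value was far from the others of its group. H19 was at 154 TPM in culture 1 of paxillin siRNA at DIV10, against 33, 21.3 and 16.3 TPM in cultures 2, 11 and 10, so that its gap to the nearest took most of the range of the group. By chance about 1 in 20 groups, here 3.5, would give such a value. The same library held the highest Igf2 (4.46 TPM) and Dlk1 (38.8 TPM) of the 46 cultures, 1.28 TPM of Mki67 and 969 TPM of Cdkn1a.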

How the results depend on the processing

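The number of the 10 genes past the threshold, given in the report for the main analysis, changed as follows, each with the share of all genes past it in the same fit. Without a filter on low values it was 1 for DIV5 to DIV10 in SC cultures (12.9%) and 0 for paxillin against SC siRNA at DIV10 (0.582%), and with median ratio size factors it was 0 for the latter (2.04%). With only the groups compared in the fit it was 0 for DIV5 to DIV10 (0.0772%), 6 for DIV3 to DIV10 with paxillin siRNA and BDNF (49.2%), 2 for BDNF with SC siRNA at DIV3 (0.73%) and 0 for paxillin against SC siRNA at DIV10 (0%). With a term for the series of library numbers it was 7 for E15 to DIV3 (15.5%), 4 for DIV5 to DIV10 (28.6%), 6 and 5 for DIV3 to DIV10 with SC siRNA without and with BDNF (46.4 and 48.4%), 2 for BDNF at DIV3 with SC and with paxillin siRNA (2.5 and 4.08%), and 1 and 5 for paxillin against SC siRNA at DIV5 and DIV10 (21.8 and 34.1%). Without cultures 10 and 11 it was 5 for DIV3 to DIV10 with SC siRNA, without and with BDNF (36.0 and 41.5%), 0 for BDNF at DIV3 with SC and with paxillin siRNA (1.08 and 0.232%) and 5 for paxillin against SC siRNA at DIV10 (36.9%). The cause was not tested.

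With the culture number as a replicate block, the count was 1 for DIV3 to DIV5 (15.4%), 6 and 5 for DIV3 to DIV10 with SC siRNA without and with BDNF (46.5 and 51.3%), 2 for BDNF at DIV3 with SC and with paxillin siRNA (4.01 and 5.49%), 2 and 5 for paxillin against SC siRNA at DIV5 and DIV10 (22.7 and 19.1%), and 1 for the same with BDNF at DIV5 (22.0%). Where pairing did not hold, these samples share only a number. In hippocampus the correlation of same-numbered libraries was -0.0074 at P10, 0.875 at P15 and 0.859 at P21, so the numbers were not taken as pairs, and the replicate block gave 2 for P10 to P21 (16.1%). The block changed no other count of the 10 by over 1.5 times. Over all genes it moved the calls between the siRNAs from 880 to 3233 at DIV5 and from 367 to 2726 at DIV10.

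In hippocampus DESeq2 gave 1 for P15 to P21 (0.898%) and 2 for P10 to P21 (14.9%), and additive terms for age and genotype gave 2 for P10 to P21 (15.7%). A term for the libraries numbered 2 at P15 and P21 gave 1, 1 and 4 for P10 to P15, P15 to P21 and P10 to P21 (11.4, 5.77 and 27.8%), and leaving them out gave 2, 1 and 3 (16.7, 3.15 and 35.2%). Leaving out each library in turn gave 1 to 4 for E15 to DIV3, 0 to 1 for DIV3 to DIV5, 0 to 4 for DIV5 to DIV10, 2 to 3, 0 to 3, 3 to 4 and 1 to 3 for DIV3 to DIV10 with SC, SC and BDNF, paxillin, and paxillin and BDNF, 0 to 1 for BDNF with SC siRNA at DIV3, 0 to 2 for BDNF with paxillin siRNA at DIV10, 0 to 4 for paxillin against SC siRNA at DIV10 and 0 to 1 for P10 to P21. A library left out of a group of 2 leaves a lone library that is assumed to vary like the other groups. Of the values of single genes that passed or were named, 751 kept their side of the threshold under an alternative, 200 lost it and 0 changed sign. Of genes that passed only under an alternative, 2 turned direction, Rian from P10 to P15 (0.14 to -0.50 without the libraries numbered 2 at P15 and P21) and Cdkn1c between the siRNAs at DIV10 (-0.12 to 1.21 without cultures 10 and 11). Counting depth limits H19, Dlk1 and Ube3a in hippocampus, where every library held under 100 reads of each.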
